A study of Mus musculus with 12 samples.

Results

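Casein and other milk protein genes of mouse mammary tumors were followed as a set of 9 genes chosen by name. The set held the caseins Csn3, Csn1s1, Csn1s2a and Csn2, the whey proteins Lalba and Wap, the milk fat globule genes Btn1a1 and Xdh, and the mucin-like Glycam1. These were 9 of 21960 genes listed for each tumor. No measured value entered the rule, but the genes were named with earlier results of these data known. RNA came from 12 whole snap-frozen tumors of female C57BL/6 mice. In these mice the Mouse Mammary Tumor Virus promoter drives the polyoma virus middle T antigen (PyMT) in mammary epithelium. The methods of the paper do not say whether each tumor came from a separate mouse. Values were TPM, a measure of transcript abundance scaled by transcript length, so that levels of different genes can be set side by side.

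Each of 4 groups held 3 tumors. In the IgG1 and anti-PD-1 groups, mice received a control IgG1 antibody or an antibody against the immune checkpoint receptor PD-1 from a tumor diameter of 0.6 cm, at 20 mg/kg first and at 10 mg/kg every 6 days to day 18. In the DOX + IgG1 and DOX + anti-PD-1 groups, the chemotherapeutic doxorubicin was given weekly at 5 mg/kg over 5 weeks from a diameter of 1 cm, with 10 mg/kg of either antibody 1 day after each dose. Doxorubicin therefore cannot be told apart from the starting size, the first antibody dose or the schedule, and sample labels give 5 weekly treatments for all 12 tumors. The column headers of the DOX + anti-PD-1 tumors carry the mark Cov.2 and those of the other 9 tumors Cov.1. The meaning of this mark is not given in the sources used here, and it cannot be told apart from that group. Read depth is unknown, since TPM keeps none.

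Caseins are the main proteins of milk and assemble with calcium phosphate into micelles, whose surface is coated by the kappa-casein encoded by Csn3. They are made together with whey proteins by alveolar luminal cells of the mammary gland, where prolactin acts through its receptor and the kinase JAK2 on the transcription factor STAT5. Milk fat leaves the same cells as droplets wrapped in membrane that carries butyrophilin and xanthine oxidoreductase. PyMT tumors arise from luminal mammary epithelium.

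All 4 caseins lie on chromosome 5 within 266.5 kb, from 87666208 to 87932665 (GRCm38, the assembly also called mm10). Csn1s1 (ENSMUSG00000070702), which encodes an alpha-S1 casein, comes first on the plus strand, followed by the beta-casein gene Csn2 (ENSMUSG00000063157) on the minus strand. Csn1s2a (ENSMUSG00000061937), an alpha-S2 type casein gene, and Csn3 (ENSMUSG00000001622) follow on the plus strand. Of 13 annotated genes in the stretch, 7 code for protein, and these were the 7 listed for the tumors. The other casein among them, Csn1s2b, lay between 0 and 1.64 TPM over the 12 tumors, and Prr27 and Odam did not pass 0.97 and 2.52 TPM. Lalba (ENSMUSG00000022991) and Glycam1 (ENSMUSG00000022491) lie on chromosome 15, Wap (ENSMUSG00000000381) on chromosome 11, Btn1a1 (ENSMUSG00000000706) on chromosome 13 and Xdh (ENSMUSG00000024066) on chromosome 17.

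Promoter windows of 250 bases before and 50 bases after the RefSeq start (GRCm38.p6) were found for 6 of the 9 genes, and Csn3, Btn1a1 and Xdh had no entry. The letters TTCNNNGAA, the core that STAT5 can bind and which reads the same on both strands, stood in 4 of the 6 windows. Of all 32851 windows of this length in the table, 8.3% held the letters. Csn1s1, Csn1s2a and Csn2 are shown because they share the cluster, and Lalba because its levels followed those of Csn3 from tumor to tumor. Capitals mark the match, and each line runs 5' to 3' on the strand of its gene.

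Csn1s1: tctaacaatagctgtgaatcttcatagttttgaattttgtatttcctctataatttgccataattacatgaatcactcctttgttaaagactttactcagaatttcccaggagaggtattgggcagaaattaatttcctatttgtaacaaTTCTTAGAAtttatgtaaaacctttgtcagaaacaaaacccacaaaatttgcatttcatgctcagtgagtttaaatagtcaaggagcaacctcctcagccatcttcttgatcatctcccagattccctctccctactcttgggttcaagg

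Csn2: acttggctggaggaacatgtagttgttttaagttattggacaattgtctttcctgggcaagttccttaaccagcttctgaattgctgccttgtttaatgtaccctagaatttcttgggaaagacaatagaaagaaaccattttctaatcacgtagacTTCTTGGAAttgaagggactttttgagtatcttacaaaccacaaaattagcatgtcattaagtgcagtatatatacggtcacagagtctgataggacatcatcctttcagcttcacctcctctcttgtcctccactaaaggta

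Csn1s2a: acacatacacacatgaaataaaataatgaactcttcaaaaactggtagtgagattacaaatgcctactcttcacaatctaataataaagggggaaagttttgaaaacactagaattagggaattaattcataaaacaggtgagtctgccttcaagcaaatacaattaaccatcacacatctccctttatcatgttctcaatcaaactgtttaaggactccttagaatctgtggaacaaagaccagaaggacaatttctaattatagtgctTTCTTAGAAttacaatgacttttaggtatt

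Lalba: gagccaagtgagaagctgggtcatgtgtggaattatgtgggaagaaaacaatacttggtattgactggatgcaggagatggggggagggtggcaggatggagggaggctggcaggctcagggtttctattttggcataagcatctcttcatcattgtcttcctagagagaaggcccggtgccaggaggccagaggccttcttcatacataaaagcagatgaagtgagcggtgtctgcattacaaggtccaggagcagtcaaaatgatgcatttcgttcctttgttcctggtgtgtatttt

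The Csn1s1 window is chr5:87665958-87666257 on the plus strand, and its match TTCTTAGAA spans -100 to -92 from the start. In the Csn2 window, chr5:87699376-87699675 on the minus strand, TTCTTGGAA spans -93 to -85. Csn1s2a carries TTCTTAGAA at +20 to +28 in chr5:87774200-87774499 on the plus strand. The Lalba window, chr15:98482634-98482933 on the minus strand, and the Wap window held no match, and Glycam1 held TTCCCAGAA at -145 to -137. RefSeq and GENCODE starts coincide for Csn1s1 and Glycam1 and are 205 bases apart for Csn2, 117 for Csn1s2a, 38 for Lalba and 12 for Wap, so those distances depend on the annotation. No binding was measured in these tumors.

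Csn3 was the most abundant of the 9 genes in each of the 12 tumors. It reached 6987, 4472 and 7858 TPM in IgG1 replicates 1, 2 and 3 and 5979, 9221 and 6830.45 TPM in anti-PD-1 replicates 1, 2 and 3. In DOX + IgG1 tumors Csn3 stood at 812, 3071 and 2403 TPM, and in DOX + anti-PD-1 tumors at 5652, 7864 and 2669 TPM. All DOX + IgG1 tumors were below all IgG1 and all anti-PD-1 tumors, whereas the DOX + anti-PD-1 tumors spread over the range of the other groups. Among all listed genes Csn3 ranked 1, 3 and 1 in IgG1 tumors, 1, 1 and 3 in anti-PD-1 tumors, 68, 7 and 10 in DOX + IgG1 tumors, and 2, 1 and 7 in DOX + anti-PD-1 tumors. Group levels were 7343 ± 1681 TPM (SD, n = 3) with anti-PD-1, 6439 ± 1758 with IgG1, 5395 ± 2607 with DOX + anti-PD-1 and 2095 ± 1160 with DOX + IgG1.

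**Figure D1:**
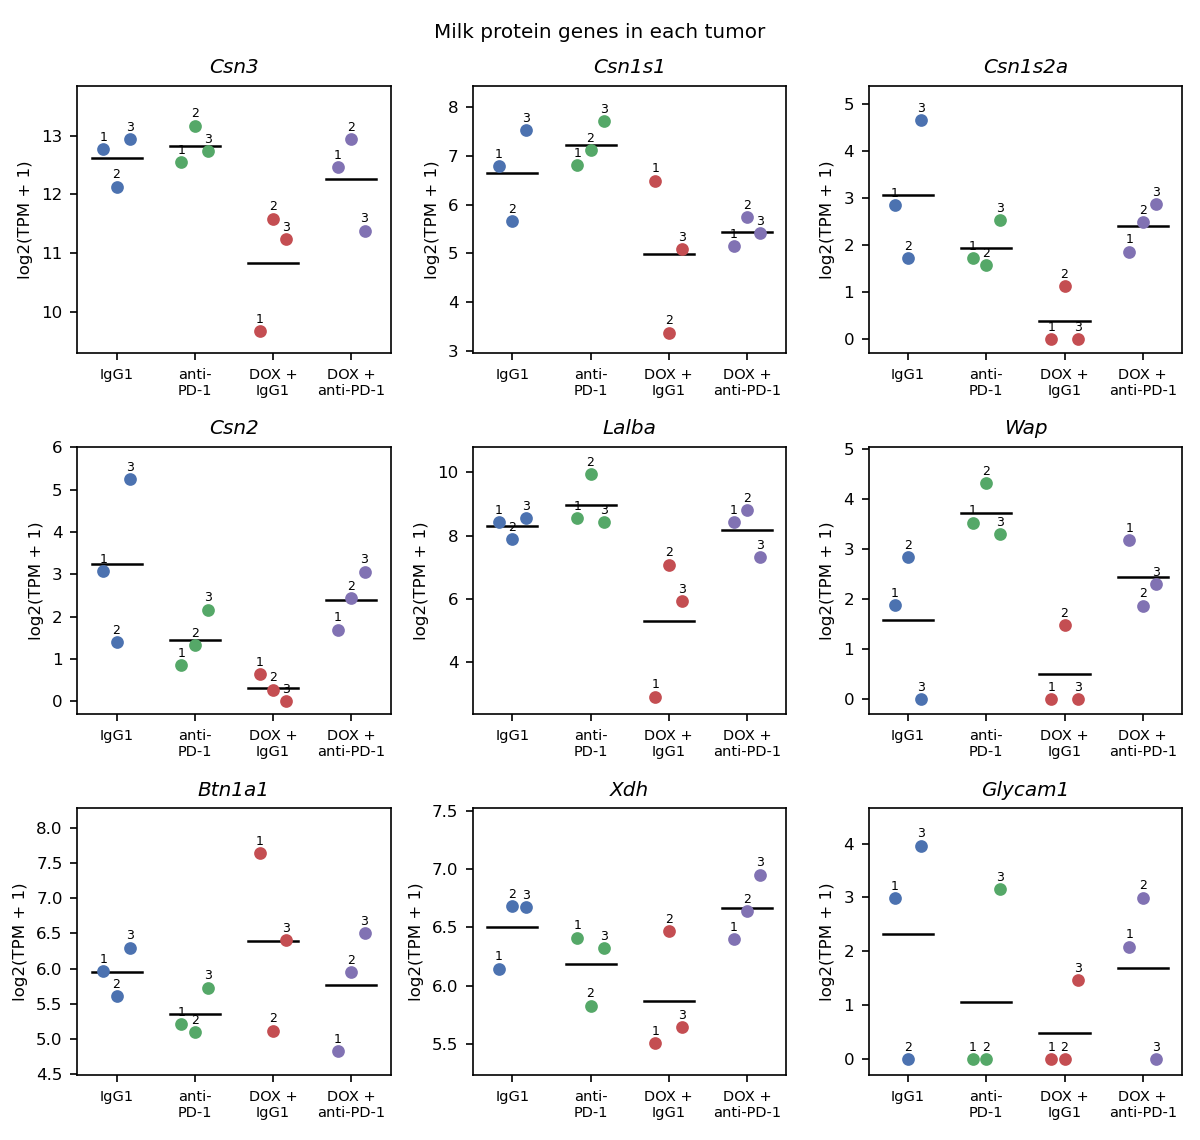
Level of each of the 9 milk protein genes in log2(TPM + 1) on the vertical axis, in the 12 tumors by group on the horizontal axis. Points are tumors with their replicate number, colors are groups and black bars are group means of 3 tumors. Csn3, Lalba, Csn2 and Csn1s2a show all 3 DOX + IgG1 tumors below the 3 IgG1 tumors, and Btn1a1 is highest in DOX + IgG1 replicate 1.

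Csn1s1 was listed at 109, 49.7 and 183 TPM for the IgG1 group and at 112, 138 and 209 TPM for the anti-PD-1 group. With doxorubicin it was listed at 89.0, 9.39 and 33.2 TPM for the DOX + IgG1 group and at 34.4, 52.6 and 41.6 TPM for the DOX + anti-PD-1 group. The DOX + anti-PD-1 tumors were all below the anti-PD-1 tumors, but DOX + IgG1 replicate 1 exceeded IgG1 replicate 2. Csn3 exceeded Csn1s1 by a factor that ran from 9.1 in DOX + IgG1 replicate 1 to 327.0 in DOX + IgG1 replicate 2, so caseins of one cluster did not keep a fixed ratio.

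Csn2 and Csn1s2a, the beta-casein and alpha-S2 type casein genes, were orders of magnitude below Csn3. Csn2 stood at 7.38, 1.63 and 36.9 TPM for the IgG1 group, at 0.81, 1.52 and 3.48 TPM for the anti-PD-1 group, at 0.56, 0.21 and 0 TPM for the DOX + IgG1 group, and at 2.23, 4.43 and 7.35 TPM for the DOX + anti-PD-1 group. For Csn1s2a the values in the same order were 6.17, 2.30 and 23.98 TPM, then 2.28, 1.97 and 4.73 TPM, then 0, 1.17 and 0 TPM, then 2.61, 4.57 and 6.30 TPM. Both genes had their highest level in IgG1 replicate 3, and their lowest 3 levels were the 3 DOX + IgG1 tumors. The ribosomal protein gene Rpl24, with a median of 31.2 TPM, was also listed at 0 in 1 tumor. Of 4953 genes with a median above 30 TPM, 21 were listed at 0 in at least 1 tumor. Whether a value of 0 was a failed estimate or a low level was not tested.

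Lalba encodes alpha-lactalbumin, the whey protein that turns a galactosyltransferase into lactose synthase. Its levels were 343, 236 and 375 TPM for the IgG1 group, 371, 979.7 and 341 TPM for the anti-PD-1 group, 6.60, 134 and 60.4 TPM for the DOX + IgG1 group, and 340.1, 443 and 158 TPM for the DOX + anti-PD-1 group. The DOX + IgG1 tumors lay below all 9 other tumors, and replicate 1 stood about an order of magnitude below its own group. Among listed genes Lalba ranked 10276 in that tumor and between 39 and 2643 in the other 11.

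Wap encodes whey acidic protein, a rodent whey protein with protease inhibitor-like domains. Wap was listed at 2.68, 6.10 and 0 TPM for the IgG1 group, at 10.49, 18.95 and 8.79 TPM for the anti-PD-1 group, at 0, 1.79 and 0 TPM for the DOX + IgG1 group, and at 8, 2.64 and 3.92 TPM for the DOX + anti-PD-1 group. Each anti-PD-1 tumor exceeded every tumor of the other groups.

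Btn1a1 encodes butyrophilin, the main integral protein of the milk fat globule membrane, and Xdh the xanthine oxidoreductase that binds it during droplet secretion and also acts in purine breakdown in many tissues. Btn1a1 stood at 61.5, 47.65 and 77.65 TPM for the IgG1 group, at 36.1, 33.3 and 52.0 TPM for the anti-PD-1 group, at 199, 33.7 and 83.9 TPM for the DOX + IgG1 group, and at 27.3, 60.9 and 90.1 TPM for the DOX + anti-PD-1 group. Xdh varied least, with 69.7, 102 and 101 TPM for the IgG1 group, 84.1, 55.8 and 79.1 TPM for the anti-PD-1 group, 44.4, 87.5 and 48.9 TPM for the DOX + IgG1 group, and 83.5, 98.9 and 123 TPM for the DOX + anti-PD-1 group. Neither gene separated any of the 4 pairs of groups compared here. Over 12 tumors the SD of log2(TPM + 1) was 0.45 for Xdh and 0.79 for Btn1a1, against 1.80 for Lalba.

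Glycam1 encodes a mucin-like glycoprotein that is secreted into milk and is also made by high endothelial venules of lymph nodes. The gene was listed at 0 in 6 of 12 tumors. The values above 0 were 6.95 and 14.58 TPM in IgG1 replicates 1 and 3, 7.87 TPM in anti-PD-1 replicate 3, 1.76 TPM in DOX + IgG1 replicate 3, and 3.25 and 6.98 TPM in DOX + anti-PD-1 replicates 1 and 2. Of 12 high endothelial venule markers, Chst4 and 1 other gene were listed at 0 in all 12 tumors. The summed level of that list ran from 90.6 to 198.0 TPM, with the endothelial genes Cd34 or Pecam1 as its most abundant. Ccl21a, a chemokine of lymph node vessels and stroma, was listed at 0 to 22.1 TPM.

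Together the 9 genes took 1.246, 0.713 and 1.224% of the listed TPM for the IgG1 group and 1.011, 1.597 and 1.111% in anti-PD-1 tumors. The shares were 0.165, 0.475 and 0.383% in DOX + IgG1 tumors and 0.931, 1.177 and 0.483% in DOX + anti-PD-1 tumors. Csn3 made up 86.1 to 92.1% of the milk protein TPM in 11 tumors and 70.5% in DOX + IgG1 replicate 1. Its ratio to Lalba lay between 9.4 and 39.8 in those 11 tumors and was 123.1 in DOX + IgG1 replicate 1.

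**Figure D2:**
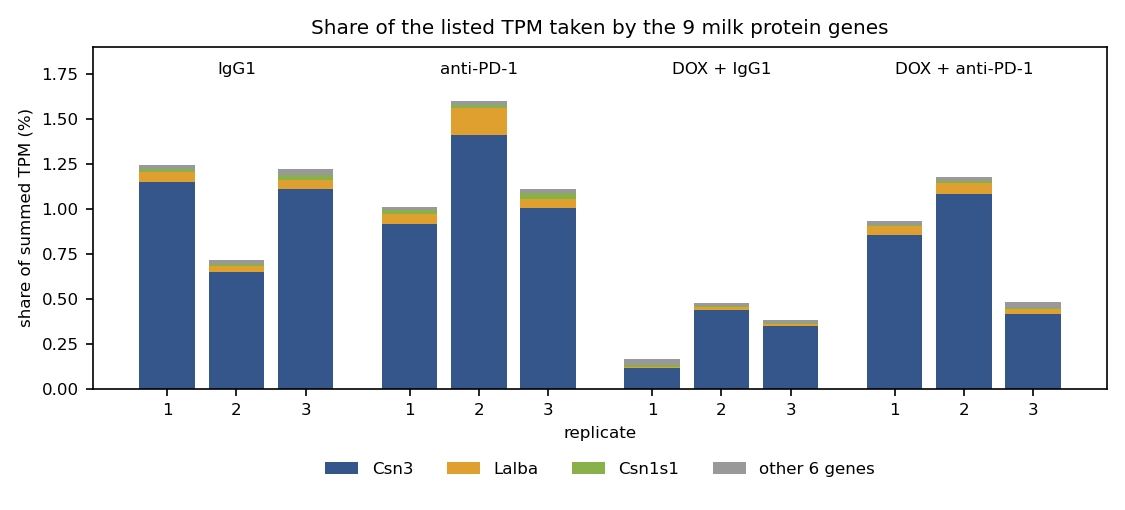
Share of the summed TPM of all 21960 listed genes taken by the 9 milk protein genes, in percent, for each tumor by replicate number within its group. Bars start at 0 and are stacked by Csn3, Lalba, Csn1s1 and the other 6 genes. The DOX + IgG1 bars, at 0.165, 0.475 and 0.383%, are the lowest 3 of 12.

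DOX + IgG1 replicate 1 stood apart in several ways. Its median correlation with the other 11 tumors over all genes was 0.940, the lowest of 12, with 0.9444 in DOX + anti-PD-1 replicate 3 as the next. Its column header carries the added word test, whose meaning is not given in the sources used here. It had the lowest Csn3 and Lalba of all tumors, the highest Btn1a1, and 7185 TPM of the milk and secretory granule iron carrier Ltf, which lay between 647 and 1758 TPM in the other 11. Results that turn on this tumor are given below with and without it.

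Differences between groups were fitted with limma on log2(TPM + 1) over all genes that reached 1 TPM in at least 3 tumors of the fit. To be called, a gene needed a p, adjusted over all genes tested, below 0.1 and a log2 fold change beyond 1 in either direction. Standard errors (SE) are those of limma, and the pseudocount of 1 makes these log2 fold changes smaller than the change in TPM for genes of low level. With 3 against 3 tumors, an exact permutation test, two-sided over all 20 assignments, cannot give a p below 0.1. For whole tumors, fewer alveolar-like cells and less milk protein RNA per cell cannot be told apart. The comparisons share groups, so their values for one gene are not independent.

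The first question was how tumors after doxorubicin differed from control tumors in the absence of PD-1 blockade. Between DOX + IgG1 and IgG1 tumors, none of the 9 milk protein genes was called by limma, against 5 of 13874 genes tested (0.036%), with 1073 genes at an unadjusted p below 0.05. By log2 fold change, 8 of 9 were below 0, against 39.4% of all genes, and the median of the 9 was -1.78 against 0.12. Below -1 were 7 of 9, against 2.84% of all genes. In 4 genes, namely Lalba, Csn3, Csn2 and Csn1s2a, every DOX + IgG1 tumor lay below every IgG1 tumor, which held for 4.64% of all genes. The opposite arrangement held for none of the 9 and for 9.31% of all genes. Csn2 passed the minimum of 1 TPM through the IgG1 tumors alone, so these counts were repeated, in a choice made after seeing the data, over genes with 1 TPM in at least 1 tumor of each group. Of the 8 remaining milk protein genes, 3 lay lower without overlap (4.47% of 13797 genes), 6 were below -1 (2.7%) and 7 below 0 (39.4%), with a median of -1.73 against 0.12.

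For Lalba the log2 fold change in that comparison was -2.97 (SE 0.87, limma adjusted p = 0.494), and for Csn2 it was -2.93 (0.87, adjusted p = 0.494). For Csn1s2a it was -2.70 (SE 0.75, limma adjusted p = 0.471) and for Csn3 -1.78 (0.51, adjusted p = 0.479). With a pseudocount of 0.1 Csn1s2a had -4.93, Csn2 -4.84 and Lalba -3.04, so no order among them is given. These 4 genes were lower in 3 of 3 DOX + IgG1 tumors, with an exact permutation p of 0.1, the smallest possible. The remaining casein, Csn1s1, had -1.67 (SE 0.74, limma adjusted p = 0.646), with 2 of 3 DOX + IgG1 tumors below the lowest IgG1 tumor. Glycam1, Wap and Xdh had -1.83, -1.08 and -0.63, with overlapping tumors. Without IgG1 replicate 2 Glycam1 had -2.99, and without IgG1 replicate 3 Wap had -1.86. Btn1a1 was the only one of the 9 above 0, at 0.43, and its value turned to -0.19 without DOX + IgG1 replicate 1.

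Without that tumor, 113 of 13664 genes were called by limma (0.827%), none of them among the 9. Csn3 then had a log2 fold change of -1.20 and Lalba of -1.78, while Csn1s1 had -2.42. Without DOX + IgG1 replicate 2, in which it was lowest, Csn1s1 had -0.87. The median of all genes lay above 0 in the comparisons with doxorubicin, at 0.12 for DOX + IgG1 against IgG1. Median of ratios scaling brought this shift to 0.01, and against it the log2 fold changes were -3.09 for Lalba, -2.98 for Csn2, -2.75 for Csn1s2a and -1.90 for Csn3.

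**Figure D3:**
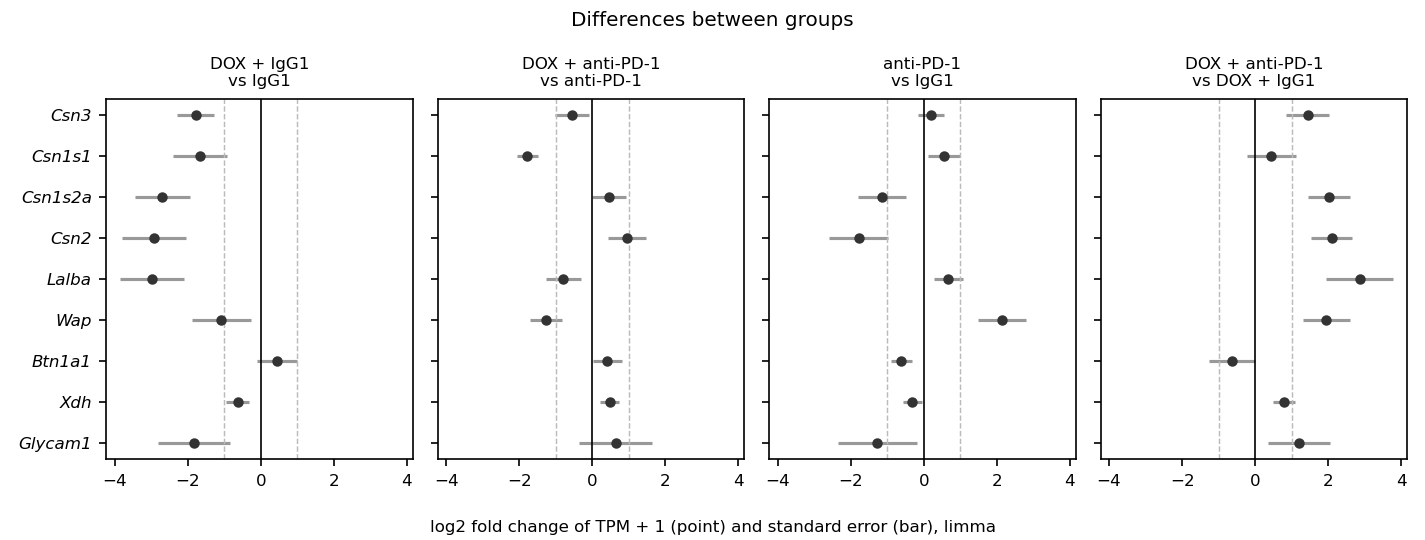
Log2 fold change of TPM + 1 (horizontal axis) of the 9 milk protein genes (vertical axis) in 4 comparisons of 3 against 3 tumors. Points are limma estimates, bars are standard errors, and dashed lines mark -1 and 1. In the left panel 8 of 9 genes lie below 0, and in the right panel 8 of 9 lie above 0, and none of these values was called.

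With PD-1 blockade in both groups, DOX + anti-PD-1 tumors were set against anti-PD-1 tumors. None of the 9 milk protein genes and none of 13736 genes (0%) was called by limma, while 1185 genes had an unadjusted p below 0.05. Csn1s1 and Wap lay lower without overlap, 2 of 9 against 3.84% of all genes, and these 2 also had a log2 fold change below -1, against 2.5% of all genes. The opposite order held for none of the 9 and for 11.1% of all genes. For Csn1s1 the log2 fold change was -1.78 (SE 0.29, limma adjusted p = 0.307, lower in 3 of 3 tumors), which placed it at rank 6 of 13736 genes by p. For Wap it was -1.27 (SE 0.45, limma adjusted p = 0.511, lower in 3 of 3 tumors).

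Other members overlapped in that comparison. Lalba had a log2 fold change of -0.79, with 2 of 3 DOX + anti-PD-1 tumors below the lowest anti-PD-1 tumor, and Csn3 one of -0.56. These were -0.30 for Lalba without anti-PD-1 replicate 2 and -0.12 for Csn3 without DOX + anti-PD-1 replicate 3. Csn2, Glycam1, Xdh, Csn1s2a and Btn1a1 lay between 0.42 and 0.95. With 1 tumor left out Btn1a1 ranged from 0.04 to 0.89 (without DOX + anti-PD-1 replicates 3 and 1), Glycam1 from 0.12 (without anti-PD-1 replicate 1) to 1.49 (without DOX + anti-PD-1 replicate 3), and Csn1s2a from 0.23 (without DOX + anti-PD-1 replicate 3) to 0.76 (without anti-PD-1 replicate 3). Csn2 had between 0.62 without DOX + anti-PD-1 replicate 3 and 1.3 without anti-PD-1 replicate 3, and Xdh had 0.3 without anti-PD-1 replicate 2. The median of the 9 was 0.42, against 0.11 for all genes, a shift that median of ratios scaling brought to -0.01. Under that scaling Csn1s1 had -1.91 and Csn2 0.86.

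Addition of the antibody to doxorubicin was examined by setting DOX + anti-PD-1 set against DOX + IgG1. None of the 9 milk protein genes and none of 13946 genes (0%) was called by limma, with 655 genes at an unadjusted p below 0.05. Csn1s2a, Csn2, Wap and Lalba were higher in every DOX + anti-PD-1 tumor than in every DOX + IgG1 tumor, 4 of 9 against 4.27% of all genes. Lower without overlap were none of the 9 and 5.95% of all genes. A log2 fold change above 1 was found in 6 of 9, against 2.85% of all genes, and the median was 1.43 against -0.04. Csn2 passed the minimum through the DOX + anti-PD-1 tumors alone, and without genes of this kind 3 of 8 lay higher without overlap (4.18% of 13885 genes) and 5 of 8 were above 1 (2.76%), with a median of 1.32.

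For Lalba this log2 fold change was 2.86 (SE 0.92, limma adjusted p = 0.988, higher in 3 of 3 tumors), and it was 1.66 without DOX + IgG1 replicate 1. Csn2 had 2.09 (SE 0.56), Csn1s2a 2.03 (0.57) and Wap 1.95 (0.63), each with a limma adjusted p of 0.988 and higher in 3 of 3 tumors. With a pseudocount of 0.1 these 3 values were 3.97, 4.21 and 4.07, above the 2.92 of Lalba, so the order of the genes depends on the pseudocount. Csn3 had 1.43 (SE 0.58), with DOX + anti-PD-1 replicate 3 between the DOX + IgG1 tumors, and 0.85 without DOX + IgG1 replicate 1. Csn1s1 had 0.45 (SE 0.67), with -0.36 without DOX + IgG1 replicate 2 and 1.2 without DOX + IgG1 replicate 1. Glycam1 had 1.21, and with 1 tumor left out it ranged from 0.96 (without DOX + IgG1 replicate 1) to 2.05 (without DOX + anti-PD-1 replicate 3). Xdh had 0.80, and Btn1a1 had -0.63, which was 0.00 without DOX + IgG1 replicate 1.

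The antibody alone was assessed by setting anti-PD-1 against IgG1 tumors. None of the 9 milk protein genes and none of 13692 genes (0%) was called by limma, with 630 genes at an unadjusted p below 0.05. Wap lay higher in every anti-PD-1 tumor, 1 of 9 against 3.64% of all genes, and none of the 9 lay lower without overlap, against 6.24%. Its log2 fold change was 2.14 (SE 0.65, limma adjusted p = 0.996, higher in 3 of 3 tumors), and 1.36 without IgG1 replicate 3, in which Wap was listed at 0. Csn2, Glycam1 and Csn1s2a had -1.78, -1.27 and -1.13, and the remaining 5 genes lay between -0.61 and 0.67. With 1 tumor left out Glycam1 ranged from -2.43 (without IgG1 replicate 2) to -0.74 (without anti-PD-1 replicate 1). Csn1s1 had 0.56 with all tumors and 0.06 without IgG1 replicate 2, and Xdh had -0.31 with all tumors and -0.13 without anti-PD-1 replicate 2. The Csn2 value was -0.78 without IgG1 replicate 3, the tumor in which Csn2 was highest, and that of Csn1s2a was -0.35. Lalba had 0.67 with all tumors and 0.19 without anti-PD-1 replicate 2. Csn3 had 0.21, which turned to -0.04 without IgG1 replicate 2.

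Doxorubicin was also tested over both antibodies in a fit of all 12 tumors. By limma none of the 9 genes was called, against 13 of 14735 genes (0.0882%), with 1751 genes at an unadjusted p below 0.05. Csn1s1 had a log2 fold change of -1.73 (SE 0.44, limma adjusted p = 0.217), Lalba one of -1.88 (0.56, adjusted p = 0.245) and Csn3 one of -1.17 (0.37, adjusted p = 0.272). An exact permutation test within both antibodies, two-sided over 400 assignments with a smallest p of 0.005, gave p = 0.01 for Csn1s1, 0.02 for Lalba and 0.02 for Csn3. The same exact test gave p = 0.055 for Wap and between 0.16 and 0.79 for the other 5 genes, and none of these p-values is adjusted over genes. Below -1 were 5 of 9, against 1.4% of all genes, and the median was -1.12 against 0.12, a shift that median of ratios scaling brought to 0.01.

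Leaving out DOX + IgG1 replicate 1 raised the number of called genes to 298 of 14626 (2.04%), which included 2 of the 9. These were Csn1s1, with a log2 fold change of -2.10 (limma adjusted p = 0.0174), and Lalba, with -1.29 (adjusted p = 0.0986). Over all alternatives the limma adjusted p ran from 0.0174 to 0.361 for Csn1s1 and from 0.0986 to 0.439 for Lalba. Csn3 had -0.88 without that tumor and was not called. Xdh, at -0.08 with all tumors, had 0.02 without it. In the remaining 5 doxorubicin tumors Csn1s1 lay between 9.39 and 52.6 TPM, against 49.7 to 209 TPM in the 6 tumors without doxorubicin.

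Whether the difference with doxorubicin depended on the antibody was tested as an interaction in the same fit. None of the 9 genes was called by limma, against 1 of 14735 genes (0.00679%), with 694 genes at an unadjusted p below 0.05. Csn2 had an interaction of 3.88 (SE 1.08, limma adjusted p = 0.993) and Csn1s2a one of 3.16 (0.92, adjusted p = 0.993), which placed them at ranks 33 and 43 by p. Glycam1, Lalba, Csn3 and Xdh had 2.47, 2.18, 1.23 and 1.11 on this scale, and without DOX + IgG1 replicate 1 Lalba had 0.99 and Csn3 0.65. Csn1s1, Wap and Btn1a1 had -0.11, -0.19 and -0.02, which turned to 0.64 for Csn1s1 and 0.61 for Btn1a1 without DOX + IgG1 replicate 1 and to 0.59 for Wap without IgG1 replicate 3.

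Within the set, levels in the 12 tumors followed each other in distinct pairs. Csn3 and Lalba had a Pearson r of 0.97 and a Spearman rho of 0.972 over log2(TPM + 1) of 12 tumors. This r was 0.91 without DOX + IgG1 replicates 1 and 3, the tumors farthest from the median of Csn3, and 0.928 for deviations from group means. Lalba was thereby the gene most correlated with Csn3 among 13637 genes. For Csn2 and Csn1s2a r was 0.949 and rho 0.967, with 0.879 without IgG1 replicate 3 and DOX + IgG1 replicate 3 and 0.903 within groups. Csn1s2a likewise ranked first among 13637 genes in correlation with Csn2. Csn3 and Lalba lie on different chromosomes, whereas Csn2 and Csn1s2a share the cluster with Csn3.

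**Figure D4:**
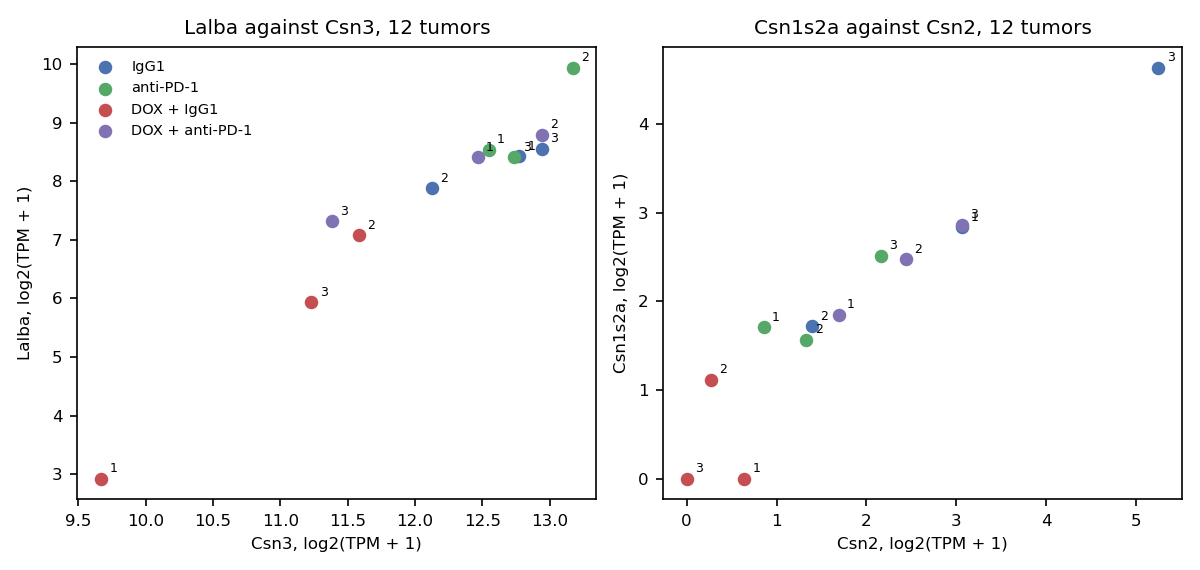
Lalba against Csn3 (left) and Csn1s2a against Csn2 (right) in log2(TPM + 1), with 1 point for each of 12 tumors, colored by group and numbered by replicate. Pearson r is 0.97 in the left panel and 0.949 in the right panel, and DOX + IgG1 tumors lie at the lower left in both.

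Other pairs were looser. Of 36 pairs, 11 had an r above 0.5 and 8 an r below 0, and the median was 0.394. Csn1s1 had an r of 0.383 with its cluster neighbor Csn3 over 12 tumors and -0.362 within groups. Csn3 had an r of 0.478 with Csn2. Btn1a1 went the other way from Csn3 with an r of -0.682, which was -0.1 without DOX + IgG1 replicates 1 and 3 and -0.652 within groups. The lowest r of all pairs was that of Lalba and Btn1a1, -0.76 over 12 tumors, -0.226 without the same 2 tumors and -0.78 within groups. Btn1a1 and Wap had an r of -0.733 over 12 tumors and -0.7 without the 2 tumors farthest from the Wap median.

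A casein index, the mean log2(TPM + 1) of the 4 caseins, was 6.37, 5.23 and 7.59 in IgG1 tumors, 5.48, 5.80 and 6.28 in anti-PD-1 tumors, 4.20, 4.09 and 4.08 in DOX + IgG1 tumors, and 5.29, 5.90 and 5.68 in DOX + anti-PD-1 tumors. Among 13629 genes with at least 1 TPM in at least 6 tumors, Lalba and Glycam1 ranked 122 and 82 in correlation with this index over 12 tumors (r of 0.652 and 0.674). Xdh ranked 716, Wap 3096 and Btn1a1 7281. Outside the 9, the highest r belonged to Adpgk (0.898), Tgif1 (0.85), Ubfd1 (0.831), Stk25 (0.831), Pdia5 (0.826), Aspn (0.818), Chil3 (0.815) and Ppp1r14c (0.813). The lowest belonged to Zkscan4 (-0.928), Dnajc8 (-0.89), Tiparp (-0.882) and Shpk (-0.861). For deviations from group means r was 0.701 for Adpgk but 0.011 for Pdia5 and 0.452 for Ppp1r14c, and it was between 0.703 and 0.824 for the other 5 of the highest and between -0.805 and -0.503 for the lowest 4. Adpgk, a glucokinase that uses ADP, stood at 20.45, 18.97 and 29.2 TPM for the IgG1 group and at 13.2, 16.5 and 13.2 TPM for the DOX + IgG1 group.

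Beyond the 9, a list of 19 other milk and secretion genes had 1 of 18 tested genes called by limma, lower with doxorubicin over both antibodies, against 0.0882% of all genes. The list was chosen with earlier results of these data known, so this share is not counted as support. The called gene was Fam20a, a pseudokinase that supports the casein kinase Fam20c of the secretory pathway. Fam20a stood at 237, 219 and 233 TPM for the IgG1 group, 296, 137 and 359.6 TPM for the anti-PD-1 group, 82.2, 122 and 64.55 TPM for the DOX + IgG1 group, and 103, 131 and 80.6 TPM for the DOX + anti-PD-1 group. It fell by 1.32 on the log2 scale (SE 0.24, limma adjusted p = 0.0951), with all 6 doxorubicin tumors below all 6 others. The median log2 fold change of the list was -0.82 in DOX + IgG1 against IgG1 tumors (14 genes tested) and -0.28 in DOX + anti-PD-1 against anti-PD-1 tumors (17 genes tested). Its most abundant genes were the iron carriers Trf and Ltf, the whey acidic protein family member Wfdc18 and the phosphoprotein Spp1, none of which was called.

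Of 24 genes for prolactin signaling, STAT5 and other alveolar regulators, 23 were tested and 1 was called, lower with doxorubicin over both antibodies, against 0.0882% of all genes. This list too was chosen with earlier results of these data known, and the share is not counted as support. The called gene was Xbp1. Xbp1, a transcription factor of the unfolded protein response and of secretory cells, stood at 779.65, 1019 and 860.03 TPM for the IgG1 group, 968, 1004 and 815 TPM for the anti-PD-1 group, 303, 368 and 297 TPM for the DOX + IgG1 group, and 593, 718 and 544 TPM for the DOX + anti-PD-1 group. It fell by 1.02 on the log2 scale (SE 0.16, limma adjusted p = 0.0451), with all 6 doxorubicin tumors below all 6 others, as for Fam20a. No gene at all was called in this fit without IgG1 replicate 2, without anti-PD-1 replicate 1 or without DOX + IgG1 replicate 3.

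The prolactin receptor gene Prlr was listed at 124, 173 and 312 TPM for the IgG1 group, 167, 193 and 148 TPM for the anti-PD-1 group, 92.2, 416 and 459 TPM for the DOX + IgG1 group, and 179, 161 and 189.99 TPM for the DOX + anti-PD-1 group. Stat5a, one of the STAT5 genes, stood at 41.0, 32.9 and 36.05 TPM, 45.5, 25.2 and 28.5 TPM, 7.78, 78.5 and 45.6 TPM, and 27.1, 42.4 and 83.3 TPM in the same order. Neither was called, and DOX + IgG1 replicate 1 was the lowest tumor for both, as it was for Csn3 and Lalba. Elf5, an alveolar transcription factor, ran from 55.5 to 160.1 TPM and was not called in any comparison. The median log2 fold change of the list was 0.06 in DOX + IgG1 against IgG1 tumors, against 0.12 for all genes.

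**Figure D5:**
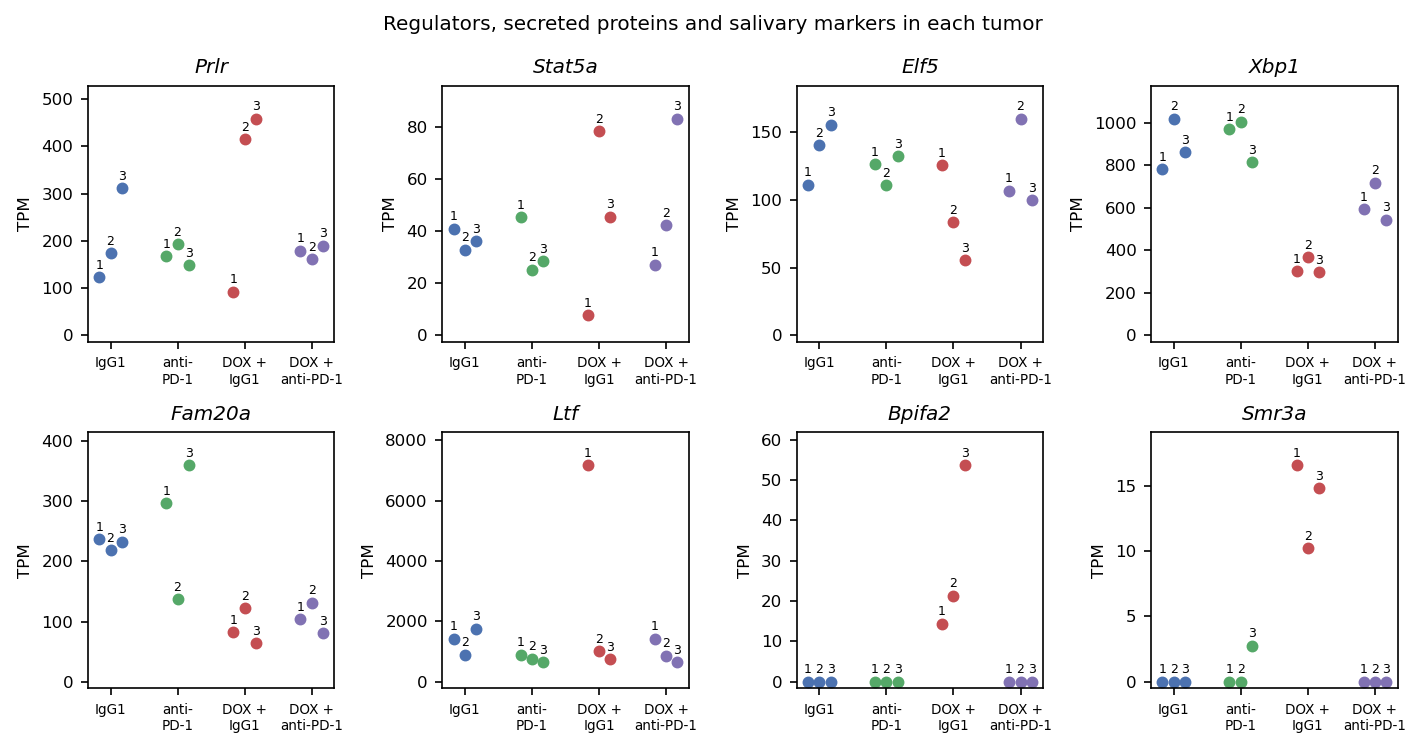
TPM (vertical axis) of 8 genes outside the milk protein set in 12 tumors by group (horizontal axis), with each point numbered by replicate. Xbp1 and Fam20a have all 6 doxorubicin tumors below the other 6, Stat5a and Prlr are lowest and Ltf highest in DOX + IgG1 replicate 1, and Bpifa2 is above 0 only in the 3 DOX + IgG1 tumors.

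Genes that supply lactose, calcium and zinc to milk and genes of milk fat synthesis had no call in any of the 6 tests. Of 15 supply genes, 13 were tested, with a median log2 fold change of 0.00 in DOX + IgG1 against IgG1 tumors and -0.19 in DOX + anti-PD-1 against anti-PD-1 tumors. Among them B4galt1, the galactosyltransferase partner of Lalba, stood at 83.45, 98.2 and 105 TPM for the IgG1 group and at 42.3, 47.2 and 64.9 TPM for the DOX + IgG1 group. Of 19 fat genes, 18 were tested, and the medians in these comparisons were 0.19 and 0.44. Scd1, a stearoyl-CoA desaturase, was the most abundant of them in every tumor.

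Cell type markers were read in the same tumors. All 15 luminal epithelial markers were above 0 in all 12 tumors, with sums of 3944 to 5952 TPM, and none was called. Their median log2 fold change was -0.19 in DOX + IgG1 against IgG1 tumors, where the 9 milk protein genes had -1.78. The luminal surface marker Epcam stood at 938, 846 and 954 TPM for the IgG1 group and at 565, 522 and 418 TPM for the DOX + IgG1 group. Krt19 went the other way in 2 of 3 tumors, with 847, 347 and 601 TPM for the IgG1 group and 302, 1261 and 1801 TPM for the DOX + IgG1 group, and 4 of the 15 markers had a log2 fold change above 0. Of 10 basal markers none was called, and their sums were 589.4, 231.4 and 530.4 TPM for the IgG1 group and 302.6, 951.5 and 1284 TPM for the DOX + IgG1 group, with Acta2 or Krt14 as the most abundant. In that comparison 9 of 10 basal markers had a log2 fold change above 0, with a median of 0.39. Of all genes 39.4% were below 0 there, with a median of 0.12. With PD-1 blockade the basal sums were 292.7, 423.9 and 416.4 TPM for the anti-PD-1 group and 592.0, 574.4 and 774.8 TPM for the DOX + anti-PD-1 group, without overlap. All 10 log2 fold changes were above 0 with a median of 0.62, while 40% of all genes were below 0 with a median of 0.11. The part of these markers in the milk protein differences was not tested.

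Further lists held no call. Adipocyte markers (10 genes, led by Car3 or Cfd) summed to 136.8, 545.1 and 586.2 TPM for the IgG1 group, 274.4, 184.0 and 264.4 TPM for the anti-PD-1 group, 274.5, 1675 and 330.0 TPM for the DOX + IgG1 group, and 1340.1, 467.0 and 577.0 TPM for the DOX + anti-PD-1 group. In DOX + IgG1 against IgG1 tumors 9 of 10 adipocyte markers had a log2 fold change above 0, with a median of 0.50. Of all genes 39.4% were below 0 there, with a median of 0.12. In DOX + anti-PD-1 against anti-PD-1 tumors 10 of 10 adipocyte markers had a log2 fold change above 0, with a median of 1.43. In the same comparison 8 of 8 fibroblast markers were above 0 with a median of 0.72, while 40% of all genes were below 0 with a median of 0.11. Skeletal muscle markers (8 genes) ranged from 0.3 to 813.8 TPM in sum, both in the DOX + anti-PD-1 group, and fibroblast markers (8 genes) from 545.9 in DOX + IgG1 replicate 1 to 1855 TPM in DOX + IgG1 replicate 2. Cell cycle genes (10 genes) had a median log2 fold change of -0.59 in DOX + IgG1 against IgG1 tumors and 0.09 in DOX + anti-PD-1 against anti-PD-1 tumors. In DOX + anti-PD-1 set against DOX + IgG1, 10 of 10 were above 0 with a median of 0.64, while 53.7% of all genes were below 0 with a median of -0.04. The part of these lists in the milk protein values was not tested.

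Salivary gland markers were also read in the group in which milk protein genes were lowest. Of 16 on the list, 11 were tested in DOX + IgG1 against IgG1 tumors. A log2 fold change above 0 was found in 8 and below 0 in 3, against 39.4% of all genes below 0. Above 1 were 4 of the 8, and the median was 0.93 against 0.12 for all genes. Bpifa2 and Smr3a, secreted proteins of salivary glands, passed the minimum of 1 TPM through the DOX + IgG1 tumors alone. Their log2 fold changes of 4.73 and 3.87 are part of these counts and this median. Neither the counts and median nor the limma calls of these 2 genes against IgG1 tumors are therefore counted as support. No other of the 11 markers was called there. Bpifa2 stood at 14.4, 21.3 and 53.7 TPM for the DOX + IgG1 group and was listed at 0 in the other 9. Smr3a, which starts 69.9 kb after the end of Csn3, stood at 16.6, 10.2 and 14.8 TPM there, at 2.76 TPM in anti-PD-1 replicate 3, and was listed at 0 in the other 8. The salivary amylase gene Amy1 reached 21.1, 42.8 and 34.3 TPM for the DOX + IgG1 group and 5.24, 15.0 and 5.93 TPM for the IgG1 group, without a call. For the anti-PD-1 group it stood at 18.05, 4.85 and 7.32 TPM and for the DOX + anti-PD-1 group at 14.8, 14.6 and 21.8 TPM, so that the doxorubicin groups overlapped. The 3 markers below 0 were Bhlha15, Egf and Aqp5, with -1.19, -1.03 and -0.66. Aqp5, which the tumors of all groups expressed, was the most abundant of the 16 in every tumor, and between 1 and 11 markers were listed at 0 in a tumor. The sums were 468.1, 449.4 and 464.8 TPM for the IgG1 group, 483.4, 325.6 and 609.7 TPM for the anti-PD-1 group, 329.5, 389.3 and 443.0 TPM for the DOX + IgG1 group, and 444.7, 400.6 and 153.7 TPM for the DOX + anti-PD-1 group. Of the 6 tumors of the DOX + IgG1 and IgG1 groups, leaving out any 1 but DOX + IgG1 replicate 1 left no gene called higher. Without any 1 of the DOX + IgG1 tumors, Bpifa2 and Smr3a fell below the minimum and could not be fitted, so their loss there was fixed in advance. The part of these markers in the milk protein differences was not tested.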

How the data were processed

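The authors deposited 1 table of gene values for each tumor, which were on the scale log2(TPM + 1), with reads aligned by STAR and counted by RSEM on mm10, versions not given. Libraries were made from whole tumor RNA with a SMARTer stranded total RNA kit. Values were used as deposited, and TPM was recovered by undoing the log2 and the added 1. Genes with at least 1 TPM in at least 3 tumors of a fit were tested with limma 3.58.1 in R 4.3.3, and p-values were adjusted over all genes tested. Permutation tests, correlations and plots were made in Python 3.11.15. The 9 genes and the other gene lists were chosen by name with earlier results of these data known. From each list, called genes, up to 4 genes of highest mean TPM and markers that define the list were named. Promoter windows and annotation came from RefSeq (GRCm38.p6) and GENCODE.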

Additional observations from a re-analysis of the deposited data

Results flagged for a closer look

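Some values went in opposite directions in the 2 comparisons with doxorubicin. Csn2 had a log2 fold change of -2.93 in DOX + IgG1 against IgG1 tumors and of 0.95 in DOX + anti-PD-1 against anti-PD-1 tumors. Xdh had -0.63 and 0.48 in these comparisons, and the second value was 0.3 without anti-PD-1 replicate 2. Csn1s2a, with -2.70 and 0.46, and Glycam1, with -1.83 and 0.64, also changed sign. The interaction did not pass the limma test for any of these 4 genes (adjusted p = 0.993), so the difference between antibodies was not established. In the second comparison the tumors overlapped for all 4 genes, and the cause was not tested.

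The fibroblast collagen gene Col1a1 had a log2 fold change of -1.2 without and 0.97 with PD-1 blockade, and Col3a1 had -0.55 and 0.45. Neither was called. The fibroblast list as a whole did not fall without PD-1 blockade, where 4 of 8 markers were below 0 and 4 above 0, with a median of 0.04. Of all genes 39.4% were below 0 there, with a median of 0.12. The fibroblast marker Dcn had 1.37 without and 1.03 with PD-1 blockade and was not called.

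Bpifa2, a salivary gland gene, had a mean of 29.83 TPM for the DOX + IgG1 group and no value above 0 elsewhere, and its interaction had a limma adjusted p of 0.0909. The gene entered the fit only through the group in which it was high, so this call is not counted as support. With a minimum of 1 TPM in every tumor, or without any 1 of the DOX + IgG1 tumors, Bpifa2 fell below the filter and could not be fitted. The call was lost when any 1 tumor of the other groups was left out or when the pseudocount was 0.1. Under median of ratios scaling and under both rescalings of the listed genes, no interaction was called. Smr3a, another salivary gland gene, had a mean of 13.87 TPM for the DOX + IgG1 group. The cause was not tested.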

How the results depend on the processing

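Results on the 9 milk protein genes were recomputed under another pseudocount, other filters, scalings and fits and with 1 tumor left out at a time, wherever the gene still passed the minimum. In DOX + IgG1 against IgG1 tumors Csn2, Wap and Glycam1 therefore had 10 alternatives in place of 14, and Csn2 could not be fitted without any 1 of the IgG1 tumors or with 1 TPM in every tumor. Of 804 values of log2 fold change so obtained, 782 kept their direction and call, 20 reversed direction and 2 became called. The cause of these shifts was not tested.

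Both values that became called arose when DOX + IgG1 replicate 1 was left out of the test of doxorubicin over both antibodies. Csn1s1 then had a log2 fold change of -2.10 with a limma adjusted p of 0.0174, and Lalba had -1.29 with 0.0986. Over all alternatives the adjusted p ran from 0.0174 to 0.361 for Csn1s1 and from 0.0986 to 0.439 for Lalba, so that the call rests on leaving out that one tumor.

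Reversals were mostly in genes with a log2 fold change near 0. In DOX + IgG1 against IgG1 tumors, Btn1a1 ranged from -0.19 without DOX + IgG1 replicate 1 to 1.07 without DOX + IgG1 replicate 2. Csn3 in anti-PD-1 against IgG1 tumors ranged from -0.04 without IgG1 replicate 2 to 0.37 without IgG1 replicate 3. In DOX + anti-PD-1 set against DOX + IgG1, Csn1s1 ranged from -0.36 without DOX + IgG1 replicate 2 to 1.2 without DOX + IgG1 replicate 1. Btn1a1 in that comparison ranged from -1.27 without DOX + IgG1 replicate 2 to 0.00 without DOX + IgG1 replicate 1. For doxorubicin over both antibodies, Xdh ranged from -0.22 without DOX + IgG1 replicate 2 to 0.02 without DOX + IgG1 replicate 1.

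The interaction reversed for 3 genes. Csn1s1 ranged from -0.92 without DOX + IgG1 replicate 2 to 0.64 without DOX + IgG1 replicate 1. Wap reached 0.73 with a pseudocount of 0.1, and with 1 tumor left out it ranged from -0.82 without IgG1 replicate 2 to 0.59 without IgG1 replicate 3. Btn1a1 had 0.01 with listed genes rescaled to a common sum and 0.02 when rescaled without the milk protein genes, and it ranged from -0.66 without DOX + IgG1 replicate 2 to 0.61 without DOX + IgG1 replicate 1.

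The number of called genes moved as well. In DOX + IgG1 against IgG1 tumors, 5 genes were called, 2 with a filter of 1 TPM in every tumor, and between 0 without IgG1 replicate 1 and 113 without DOX + IgG1 replicate 1. In DOX + anti-PD-1 against anti-PD-1 tumors the count was 0 and ranged from 0 without anti-PD-1 replicate 2 to 4 without DOX + anti-PD-1 replicate 2. In anti-PD-1 against IgG1 tumors it was 0 and ranged from 0 without IgG1 replicate 3 to 4 without IgG1 replicate 1. In DOX + anti-PD-1 set against DOX + IgG1 it was 0, but 2 with all 12 tumors in one fit, 3 with median of ratios scaling and 3 with listed genes rescaled to a common sum. With 1 tumor left out there it ranged from 0 without DOX + IgG1 replicate 2 to 3 without DOX + IgG1 replicate 1.

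For doxorubicin over both antibodies, 13 genes were called, 6 with a pseudocount of 0.1, and between 0 without IgG1 replicate 2 and 298 without DOX + IgG1 replicate 1. The interaction had 1 called gene. It had 0 with a pseudocount of 0.1, 3 with no minimum TPM, 0 with 1 TPM in every tumor, 0 with median of ratios scaling, 0 with listed genes rescaled to a common sum and 0 when rescaled without the milk protein genes. With 1 tumor left out it had 0 without IgG1 replicate 1 and 1 without DOX + anti-PD-1 replicate 3. The gene called without that last tumor is not named here, and the call of Bpifa2 is described above.

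Replicate numbers were also entered as a block, as if tumors of the same number were paired. With this block, 2 genes were called in DOX + IgG1 against IgG1 tumors, 9 for doxorubicin over both antibodies and 0 for the interaction, and no call of the 9 milk protein genes changed. Deviations from group means had a median r of 0.017 over 18 pairs of tumors with the same number and -0.004 over 36 pairs with different numbers, so the numbers gave no sign of pairing.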
